A study of Mus musculus with 36 samples.

Results

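Gene expression was compared among 12 mice that had been treated alike. They were adult male C57BL/6J mice of the group called HF-AL, which ate a purified high-fat diet (30% of energy as fat) freely for a 3-week adaptation and then for 12 further weeks. The 12 arrays were taken by their label from a series of 36 arrays, and no other group was used. The HF-AL mice share strain, sex, age class and adaptation diet with all other mice of the series. Epididymal white adipose tissue, the fat pad beside the testis, was hybridised in the Cy5 channel, and a pool of all samples of the series in the Cy3 channel of each array. Values are log2 ratios of Cy5 over Cy3, so 0 is the level of the pool and 1 unit is a 2-fold difference between bright signals. An offset of 50 added to both channels shrinks the ratios of dim probes, for which 1 unit is more than 2-fold. The questions were which genes varied most among the 12 animals and which genes followed 4 anchor genes across them: Lep, Mest, Cd68 and Fasn. Both were repeated on 9 arrays without replicates 5, 7 and 9, which were set apart because they were known from earlier results of these data to carry duct epithelium and sperm transcripts.

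White adipose tissue stores triglyceride in adipocytes and holds stromal cells, vessels, mesothelium and immune cells beside them. Lep encodes leptin, the hormone by which fat cells signal the size of their stores to the brain. Mest is an imprinted gene whose transcript in fat is known to differ widely among genetically identical mice and to be high where a fat depot is expanding. Cd68 encodes a lysosomal glycoprotein of macrophages, and Fasn encodes fatty acid synthase, which makes palmitate from acetyl-CoA and malonyl-CoA. The epididymal depot lies against the epididymis and its ducts, whose lining is an epithelium with ciliated cells and whose lumen carries sperm. In bulk tissue, fewer cells of a type and less RNA per cell cannot be told apart.

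All 20 mature adipocyte markers of the list were well above background on all 12 arrays. So were 14915 of the 18669 genes ranked below, and all 18 endothelial and all 15 mesothelial markers. The count thus shows that adipocyte transcripts were detected and does not set fat apart from other tissue. Between 57.0% and 69.7% of probes were well above background on an array, and the median net Cy5 signal lay between 81.8 and 146. Each array lay on a slide of its own, so slide and animal cannot be told apart. Replicates 1, 8, 11 and 12 held 5 to 13 specks, spots far darker than their local background, which were kept out of the background fit.

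Over the 12 arrays, most of the genes that varied most were high in the same 3 animals. Of 18669 genes ranked, 286 had an SD over 1, and 280 of these were higher on replicates 5, 7 and 9 than on each of the other 9 arrays. Over all ranked genes, 10.8% stood above the other 9 arrays on all of these 3 and 2.07% below. A gene entered the ranking when it was well above background on 3 arrays, so some could enter through these 3 arrays alone. Of the 14915 genes well above background on all 12 arrays, 121 had an SD over 1, and 113 of these were higher on the 3 arrays, as were 8.59% of the 14915. The 20 curated genes of highest SD (2.22 to 3.38) were all higher there, and the next gene had an SD of 2.21. Of these 20, 6 were well above background on all 12 arrays (SD 2.28 to 3.10), and 5 only on replicates 5, 7 and 9, which were ccdc198, Tmem212, Efcab10, Igfbp1 and Aadac and include both ends of the range. For comparison, the median SD of all genes was 0.157, and the SD among spots of 1 probe within an array had a median of 0.105 over 245 probes spotted 10 times. The spot SD leaves out differences of labelling and hybridisation between arrays, which cannot be told apart from differences between animals.

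The cilium genes Tmem212, Ccdc153, Dynlrb2 and Ak7, the last an adenylate kinase of cilia and flagella, were among the 20. Ccdc153 stood at 2.54, 3.06 and 3.41 on replicates 5, 7 and 9 and between -3.49 and -2.73 on the other arrays. Replicate 5 was the lowest of the 3, as it was for Dynlrb2 (2.34 against 3.14 and 3.43). Both genes were well above background on all 12 arrays.

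Genes of other roles were also among the 20. Fbp1 (fructose bisphosphatase 1), Pdzk1 (a scaffold of apical transporters), Cdh16 (a cadherin of tubular epithelium), Mmp7 (matrilysin, a protease of glandular epithelium) and Calml3 (a calmodulin-like protein of epithelia) had SDs between 2.36 and 3.10. Fbp1 measured 2.85, 3.90 and 4.14 on replicates 5, 7 and 9, and between -2.96 and -2.43 elsewhere. Igfbp1, Cuzd1, Pipox and Aadac were well above background on 0 or 1 of the other 9 arrays, so their ratios there are bounds set by the background and not levels. Other probes of Mia, Plet1, Ak7, Dcdc2a and Dynlrb2 followed the ranked probe with r of 0.97 or more over 12 arrays, which describes the split between the 2 sets of arrays.

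The sperm and epithelial transcripts for which replicates 5, 7 and 9 were set apart are given here as a description. Prm1, the protamine that packs sperm DNA, was at 1.77, 3.71 and 2.43 on replicates 5, 7 and 9 and between -2.20 and -1.41 on the others, of which 7 were well above background. Epcam, an adhesion molecule of epithelia, was at 1.87, 2.88 and 2.87 and between -1.81 and -1.26, well above background on 3 of those 9. List means were taken over the members well above background on all 12 arrays. The 8 such epithelial markers averaged 0.57, 1.40 and 1.26 on these arrays and between -1.02 and -0.44 on the others, and 6 of the 8 were higher on each of the 3 arrays. The 5 such ciliated cell markers averaged 1.36, 1.89 and 2.15 against -1.34 to -0.92, with 4 of the 5 higher. The 8 such testis and sperm markers averaged 0.59, 1.38 and 1.17 against -0.40 to -0.23, with 6 of the 8 higher. Of 25 epididymis markers only Sult1e1, an oestrogen sulfotransferase, was well above background on all 12 arrays. It overlapped between the sets (0.33, 0.27 and 0.00 against -0.97 to 0.47 on the others with a value). The 8 ranked epididymis markers, a set that members could enter through these 3 arrays alone, averaged 0.26, 0.57 and 0.67 against -0.57 to -0.34. Of 7 ranked mast cell markers only Hdc, histidine decarboxylase, had an SD over 1, at 1.69, 2.20 and 2.47 against -0.96 to -0.45. Mature adipocyte markers averaged 0.09 on replicate 5, -0.23 on replicate 7 and -0.26 on replicate 9, and between -0.05 and 0.23 on the other 9 arrays. Markers of accessory glands did not mark these arrays: the mean of 8 members lay between -5.40 and -3.97 on all 12, with Svs4, a seminal vesicle secretory protein, at -6.04 to -4.05.

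**Figure D1:**
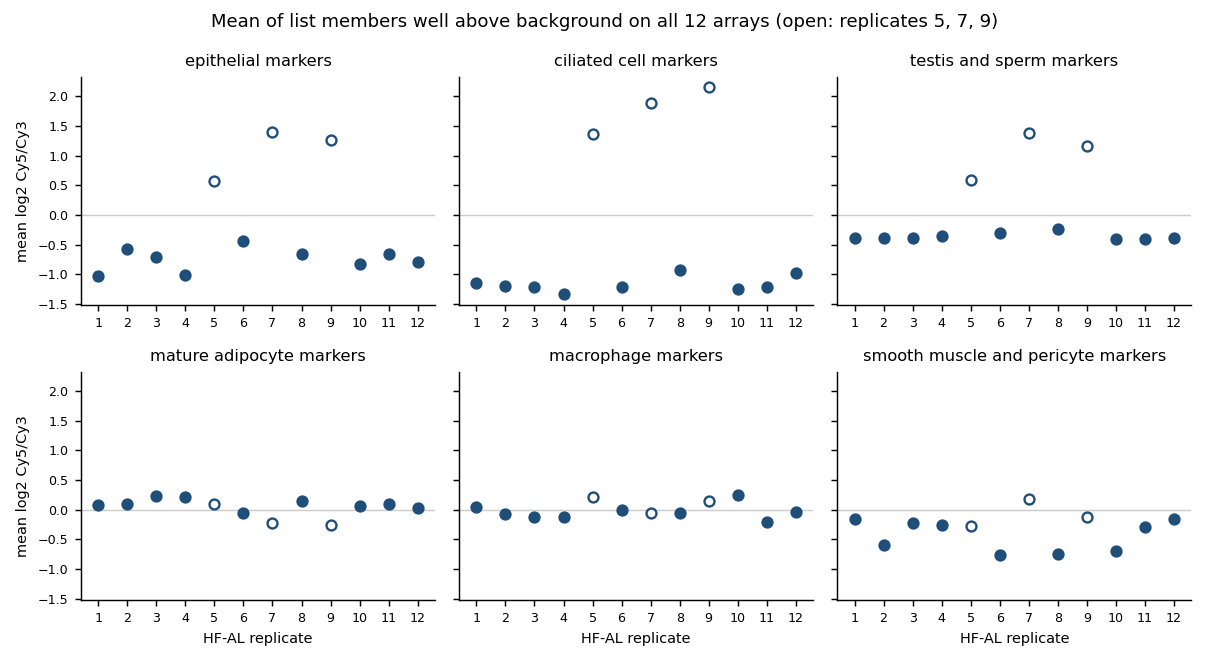
Mean log2 Cy5/Cy3 of those members of 6 marker lists that were well above background on all 12 arrays (y) on each of the 12 HF-AL arrays (x, replicate number), with replicates 5, 7 and 9 as open points. In the upper panels the open points lie above 0 and the 9 others below it, while the lower panels span a far smaller range.

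Without these 3 arrays the ranking changed completely: none of the 20 genes of highest SD over 12 arrays was among the 20 over 9 arrays. The median SD fell from 0.157 to 0.137, the value exceeded by 1% of genes from 1.23 to 0.441, and the number of genes over 0.5 from 929 to 107. An SD over 1 remained for 5 genes, which were Cish, Igh, Iglv1 and 2 without a curated symbol. The last of the 20 curated genes had an SD of 0.660 and the next 0.659.

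Cish led the ranking over 9 arrays with an SD of 1.47. It encodes an inhibitor of cytokine signalling that is induced by STAT5, the transcription factor downstream of growth hormone, prolactin and several interleukins. Its 12 values fell into 2 sets of 6 with a gap of 1.57 between them. Replicates 1, 2, 4, 8, 11 and 12 lay between -0.39 and 1.22, and replicates 3, 5, 6, 7, 9 and 10 between -2.70 and -1.96. The 3 arrays with duct transcripts all lay in the lower set, together with 3 arrays that lack them.

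Bcl6, a transcriptional repressor that STAT5 is known to repress, ranked among the first genes as well (SD 0.849 on 9 arrays). Its spot on replicate 6 was not usable. On replicates 3, 5, 7, 9 and 10, where Cish was low, Bcl6 was at 1.12, 1.12, 0.95, 0.54 and 1.19. On the 6 arrays where Cish was high, Bcl6 lay between -0.95 and -0.26, so the sets did not overlap. The sets were cut at the widest gap in the values of Cish itself. The share of all genes that separate the same arrays is not given, so the split is a description. As the values lie in separate sets, no pooled correlation is given. Within the 6 arrays of high Cish, r was -0.82 (exact permutation p = 0.0458, rho = -0.89, p = 0.0333), which did not hold after adjustment over the 6 relations computed (adjusted p = 0.275 and 0.2), and was -0.84 without the 2 arrays farthest from the median of Cish.

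The sequence before the start of these genes is shown because they had opposite patterns, with Fasn and Acly, a pair described further on. The 250 bases before the RefSeq start site (GRCm38.p6) are printed 5′ to 3′ with matches to 4 motifs in capitals on either strand. The motifs were TTCNNNGAA (the STAT palindrome, in 7.02% of 32851 such windows), TCACNCCAC (a form of the sterol response element, in 1.05%), CACGTG (an E-box, in 6.02%) and CCAAT (in 33.8%).
Cish (chr9:107296409-107296658, + strand): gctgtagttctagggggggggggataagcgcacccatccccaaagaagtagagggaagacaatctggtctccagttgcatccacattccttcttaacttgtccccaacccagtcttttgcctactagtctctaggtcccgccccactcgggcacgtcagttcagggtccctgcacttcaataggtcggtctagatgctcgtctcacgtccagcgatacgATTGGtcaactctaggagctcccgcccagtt
Bcl6 (chr16:23988853-23989102, - strand): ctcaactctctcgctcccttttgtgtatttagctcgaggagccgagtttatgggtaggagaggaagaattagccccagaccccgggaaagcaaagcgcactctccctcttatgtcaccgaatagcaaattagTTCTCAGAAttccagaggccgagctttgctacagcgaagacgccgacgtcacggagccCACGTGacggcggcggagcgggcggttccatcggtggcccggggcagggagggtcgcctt
Fasn (chr11:120824548-120824797, - strand): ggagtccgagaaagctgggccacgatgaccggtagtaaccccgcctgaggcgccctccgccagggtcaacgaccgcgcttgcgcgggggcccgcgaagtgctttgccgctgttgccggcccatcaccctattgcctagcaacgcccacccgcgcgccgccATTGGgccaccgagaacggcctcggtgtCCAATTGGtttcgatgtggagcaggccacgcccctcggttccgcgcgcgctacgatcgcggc
Acly (chr11:100528001-100528250, - strand): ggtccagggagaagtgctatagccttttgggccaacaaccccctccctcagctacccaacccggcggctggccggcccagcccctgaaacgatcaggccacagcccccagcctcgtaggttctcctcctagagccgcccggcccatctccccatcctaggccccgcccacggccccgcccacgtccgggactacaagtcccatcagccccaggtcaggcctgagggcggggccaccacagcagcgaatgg
Cish held 1 CCAAT match, Bcl6 held 1 STAT and 1 E-box match, Fasn held 3 CCAAT matches of which 2 overlap, and Acly held none of the 4 motifs. Bcl6 has a second start in the table, whose window held 3 STAT matches. These matches describe letters only.

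Immunoglobulin transcripts came next. Igh, the heavy chain locus, ran from -1.84 (replicate 1) to 1.01 (replicate 8) over the 9 arrays, and Iglv1, a lambda light chain gene, from -1.39 (replicate 8) to 1.77 (replicate 2). Both differed in order, as replicate 8 was highest for one and lowest for the other. Immunoglobulin probes share sequence across the family, so which gene they report is uncertain: 2 other probes of Igh had r of at least 0.99 with the ranked one over 9 arrays and 3 had SDs of 0.123 to 0.157.

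A matrix gene and a chaperone varied widely among the 9 arrays as well. Thbs1, thrombospondin 1, an adhesive matrix glycoprotein, ran from -1.83 (replicate 4) to 1.19 (replicate 1), and 2 other Thbs1 probes followed it with r of 0.91 and 0.90. Hspb7, a small heat-shock protein, was highest on replicate 10 at 1.29 and lowest on replicate 11 at -0.67, and another probe followed it with r = 0.92.

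Cnn1, calponin of smooth muscle, was lowest on 4 arrays, which were picked out after its values were seen. It measured -2.73, -2.63, -3.02 and -2.58 on replicates 2, 6, 8 and 10, and between -1.52 and -0.95 on the other 5 of the 9 arrays. Myh11, smooth muscle myosin, was at -1.11, -1.29, -1.35 and -1.04 on the same 4 arrays and between -0.39 and -0.23 on those 5, and Tagln (transgelin) at -0.91, -1.15, -1.06 and -1.26 against -0.49 to -0.24. Averaged over its 12 members, which include these genes, the smooth muscle and pericyte list stood at -0.59, -0.76, -0.74 and -0.69 on those 4 arrays. It lay between -0.29 and -0.15 on the others of the 9. The share of all genes that separate the same arrays is not given, so the split is a description. C7 (complement component 7) and Ccl21c, a chemokine of lymphatic vessels, were lowest on replicates 2 and 8, with C7 at -1.21 and -1.78 and Ccl21c at -1.47 and -1.76.

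Single arrays decided part of the list. Nme6 was at -2.15 on replicate 8 and between -0.46 and 0.08 on the other 8 arrays, and without that array its SD fell from 0.677 to 0.154. Rif1, a telomere and replication timing protein, was at -1.78 on replicate 8, and its SD fell from 0.660 to 0.336 without it, while another Rif1 probe had an SD of 0.136. Of 88 curated genes with an SD over 0.5, 10 lost more than 50% of it without their farthest array. Ptprz1 was measured by a very bright probe (mean log2 intensity 17.6), and 2 other Ptprz1 probes had SDs of 0.225 and 0.252 and r of -0.10 and 0.05 with it. The ranked probe of Slc15a2 was likewise not followed by another (SD 0.117, r = 0.32).

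**Figure D2:**
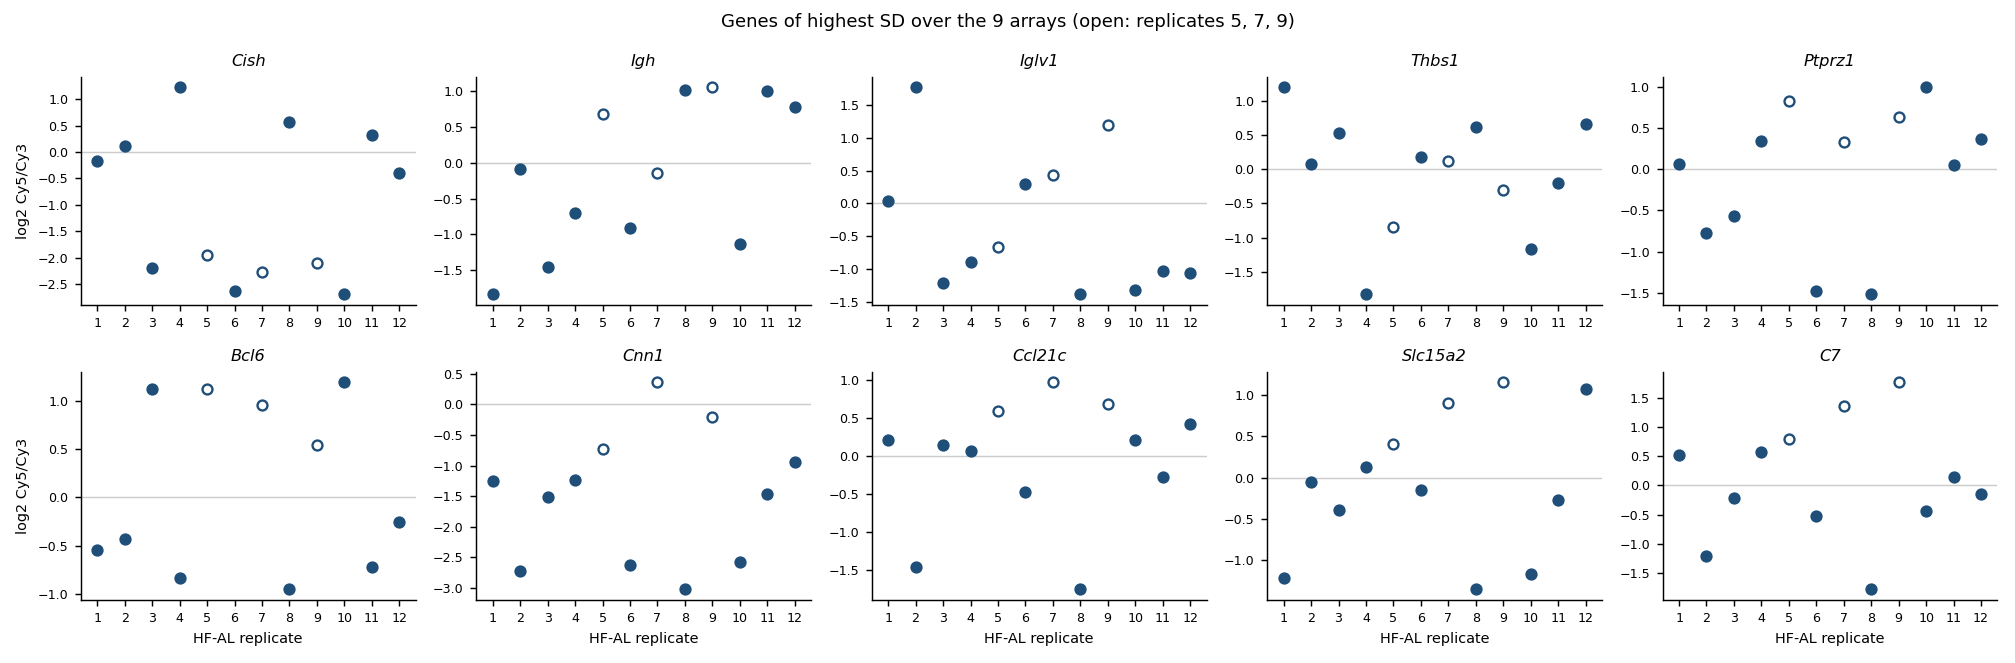
Log2 Cy5/Cy3 (y) of 10 curated genes among the 20 of highest SD over the 9 arrays on each HF-AL array (x, replicate number); open points are replicates 5, 7 and 9, which did not enter this ranking, and Bcl6 has no value on replicate 6. Cish and Bcl6 fall into separate sets with opposite order, and Cnn1 is low on replicates 2, 6, 8 and 10.

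Among gene lists, variation over the 9 arrays was highest in blood and gland transcripts. Red blood cell genes had a median SD of 0.442 and seminal vesicle and accessory gland markers 0.432, beside 0.137 for all genes. The mean of the 6 ranked red blood cell genes ran from -0.83 (replicate 2) to 0.35 (replicate 12). The 8 epithelial markers well above background on all 12 arrays had a median SD of 1.04 over 12 arrays and 0.267 over 9, and the 5 such ciliated cell markers 1.09 and 0.228. Genes tied to fat mass expansion had a median SD of 0.278, fatty acid synthesis genes 0.274, mesothelial markers 0.304 and mature adipocyte markers 0.254. Antioxidant and glutathione genes (0.150) and respiratory chain genes (0.145) varied about as little as the median gene.

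Of the 4 anchor genes, Mest varied most. Mest (probe at chr6:30698289-30698348 of mm8) ran from -1.33 on replicate 11 over a median of -0.29 to 0.96 on replicate 8, with an SD of 0.675. Fasn (chr11:120623236-120623295) ran from -1.27 on replicate 7 to 0.11 on replicate 4 (SD 0.435), and a second Fasn probe followed it with r = 0.92. Lep (chr6:29023244-29023303) ran from -0.37 on replicate 7 to 1.00 on replicate 10 (SD 0.388). Cd68 (chr11:69481007-69481066) varied least, from -0.44 on replicate 4 to 0.34 on replicate 10 (SD 0.241). All 4 were well above background on all 12 arrays and saturated on 0.

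Replicates 8 and 10 were the 2 highest arrays for both Lep and Mest, and replicate 11 was lowest for Mest and second lowest for Lep. Across 12 arrays Lep and Mest correlated with r = 0.72 (rho = 0.71), with a permutation p of 0.00783 and 0.047 after adjustment over the 6 anchor pairs; for rho, p = 0.0117 and 0.0702 adjusted. Without replicates 7 and 11, the 2 arrays farthest from the median of Lep, r was 0.60. Over 9 arrays r was 0.75 (exact permutation p = 0.0173, adjusted p = 0.104). The adjusted p rose over 0.05 when replicate 2 (0.0515), 3 (0.0572), 5 (0.0532), 8 (0.0782), 9 (0.0739), 10 (0.116), 11 (0.198) or 12 (0.0769) was left out, with r between 0.625 and 0.782 over all 12 such fits.

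None of the other 5 pairs passed. Lep and Cd68 had r = 0.62 (adjusted permutation p = 0.0897), which passed without replicate 4 (0.716, adjusted permutation p = 0.0394) or 6 (0.737, adjusted p = 0.0396), and became -0.06 over 9 arrays once replicates 10 and 11 were also left out. Mest and Cd68 had r = 0.48 (adjusted permutation p = 0.228). Fasn had r of 0.08 with Lep, -0.18 with Mest and -0.17 with Cd68, with adjusted permutation p of 0.715 or more.

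**Figure D3:**
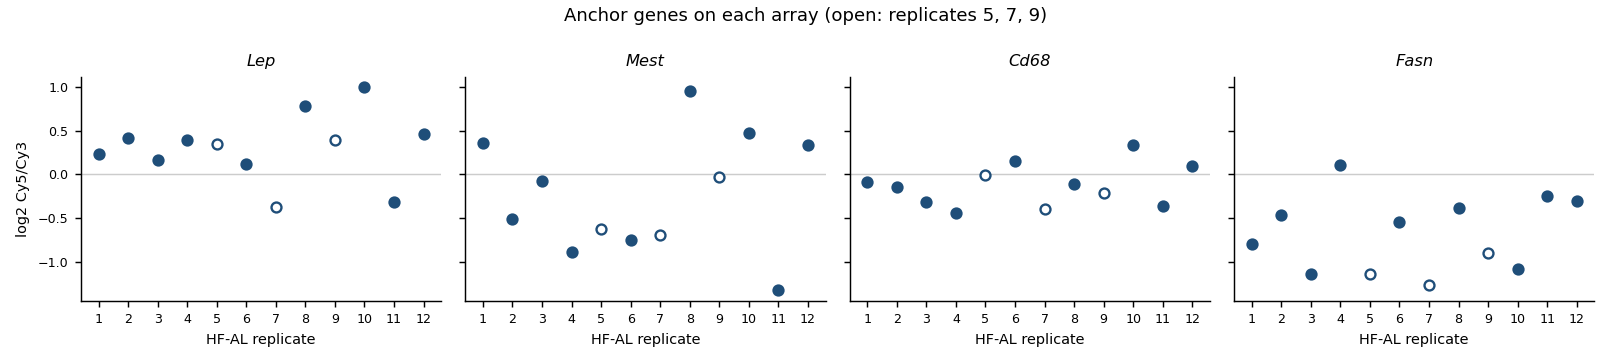
Log2 Cy5/Cy3 (y) of Lep, Mest, Cd68 and Fasn on each of the 12 HF-AL arrays (x, replicate number), on a common scale, with replicates 5, 7 and 9 as open points. Lep and Mest are both highest on replicates 8 and 10, Cd68 spans the smallest range, and Fasn is below 0 on all arrays but replicate 4.

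The genes that followed Mest were few. A regression on Mest over 16087 genes (limma, adjusted p under 0.05) called 8 genes, or 0.0497%, all in the direction of Mest. Among them were Duoxa1, Fgf13, Cryab, Npr3, S100b, Tspan17 and Ptchd4. Npr3 is the clearance receptor for natriuretic peptides, Fgf13 an intracellular relative of the fibroblast growth factors, Duoxa1 the maturation factor of a dual oxidase, Cryab a small heat-shock chaperone and S100b a calcium-binding protein. Tspan17 is a tetraspanin and Ptchd4 a patched-domain protein.

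Npr3 (chr15:11784907-11784966, mm8) ran from -0.23 on replicate 6 to 0.84 on replicate 1. It was above 0.6 on replicates 1, 8 and 10, where Mest was 0.36, 0.96 and 0.47, and below 0 on replicates 6, 7 and 11, where Mest was -0.75, -0.69 and -1.33. Replicates 4 and 5, with Mest at -0.89 and -0.63, are not among these. Per unit of Mest, Npr3 changed by 0.467 ± 0.068 (SE, n = 12; r = 0.91, rho = 0.94, adjusted p = 0.0388 by limma, permutation p of r = 4e-05, adjusted 0.00145 over 188 relations). The 188 relations include genes picked for a strong link with an anchor on these arrays, so their permutation p only describes. The other 2 Npr3 probes followed the ranked one with r of 0.73 and 0.90.

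Fgf13 (chrX:55409372-55409431) had the steepest slope of the 8, 0.773 ± 0.109 (adjusted p = 0.0388), and ran from -0.62 on replicate 4 to 1.16 on replicate 8. Another Fgf13 probe followed it with r = 0.95, but a further, dim one had r of only 0.35 with it. Cryab had the highest r (0.93; slope 0.376 ± 0.054), and S100b had 0.91 (0.383 ± 0.059, adjusted p = 0.0482). Duoxa1 had r = 0.91, but its other, dimmer probe (SD 0.106) had r of only 0.41 with the ranked one. The 5 genes most like Mest by r were Cryab, Tspan17, Npr3, Duoxa1 and S100b, with r from 0.91 to 0.93 over 12 arrays.

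The call depended on which animals were included. Without replicate 7 there were 8 called genes and without replicate 9 there were 14. Leaving out replicate 3 left 1, and leaving out any 1 of replicates 1, 2, 4, 5, 6, 8, 10, 11 or 12 left 0, while the slopes of the 8 genes stayed positive in each of these fits (Npr3 between 0.43 and 0.52). Without replicates 8 and 11, the arrays farthest from the median of Mest, 0 were called and r was 0.90 for Npr3 and 0.92 for Cryab. Fitting the background with the specks included, or leaving out the 4 arrays with specks, also left 0.

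Over the 9 arrays without duct transcripts, 15 genes were called with Mest (0.0932%), of which 7 were among the 8 called over 12 arrays, Tspan17 being the exception (adjusted p = 0.0571). New were Unc79, Synpo2, Nexn and Bmp3, a bone morphogenetic protein (0.640 ± 0.095 SE, n = 9, r = 0.91, adjusted p = 0.0267 by limma), with 2 genes without a curated symbol. Chchd10, a mitochondrial intermembrane protein, and Acsm3, a medium-chain acyl-CoA synthetase, went against Mest. Chchd10 was at -2.23 on replicate 8 and -0.92 on replicate 11 (slope -0.562 ± 0.075 over the 8 arrays with a value, adjusted p = 0.0239). Over 12 arrays it was not called (-0.647 ± 0.232, adjusted p = 0.655), and its values on replicates 5, 7 and 9 (-0.54, -0.09 and -0.29) lay above all others. Leaving out replicate 4 or 11 gave 0 called genes, leaving out 8 gave 2, both outside the 15, and leaving out 10 gave 5, all among them.

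**Figure D4:**
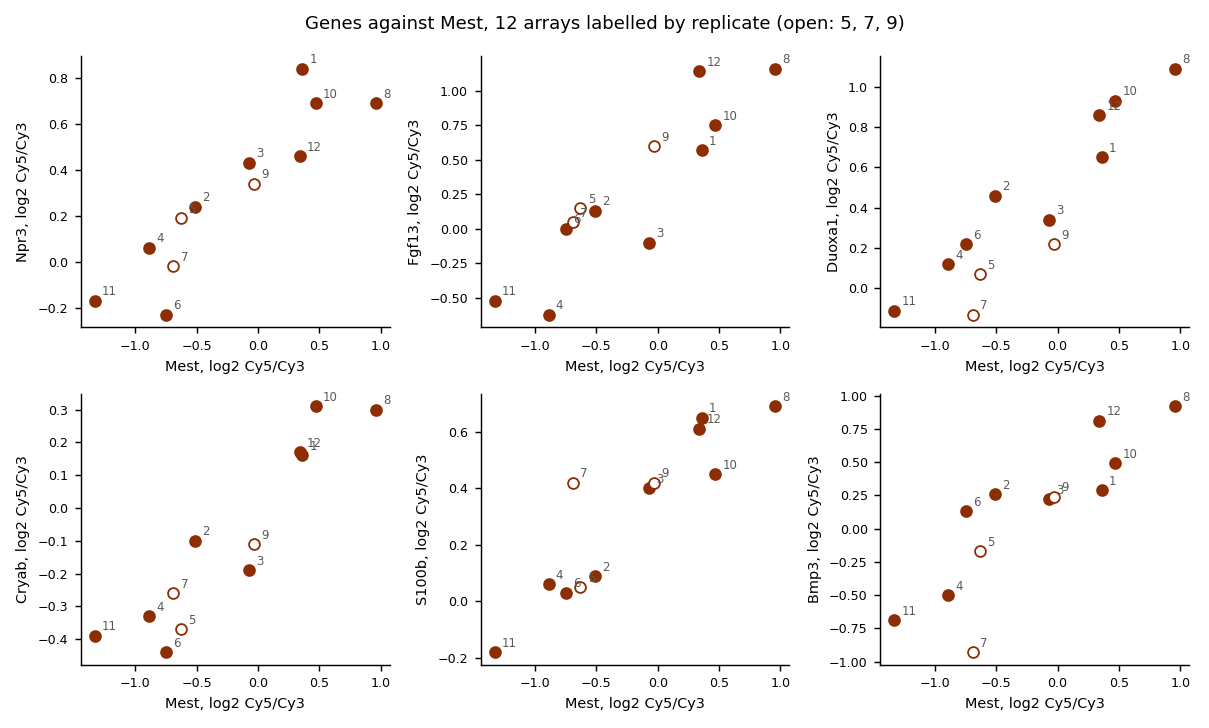
Log2 Cy5/Cy3 of Npr3, Fgf13, Duoxa1, Cryab, S100b and Bmp3 (y) against that of Mest (x), 1 point per HF-AL array labelled by replicate, open for replicates 5, 7 and 9. All 6 genes are high on replicate 8 and low on replicate 11, the ends of the Mest range, with r from 0.85 to 0.93.

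Few members of the gene lists passed the adjusted threshold with Mest, so lists are described by the unadjusted p under 0.05. Over 12 arrays 3.93% of all genes met it with a positive and 1.85% with a negative slope (9 arrays: 4.36% and 2.88%). In the list counts here and for the other anchors, positive and negative members are those that met it. Genes tied to fat mass expansion met it in 6 of 12 cases with a positive slope and in 0 with a negative one, with a median r of 0.49 beside -0.02 for all genes. Npr3 passed the adjusted test, Bmp3 (0.718 ± 0.126, adjusted p = 0.0677) and Sfrp5, a secreted Wnt inhibitor (0.514 ± 0.118, adjusted p = 0.248), did not. The list was assembled with earlier results of these arrays known.

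Cell cycle genes had 9 of 23 members positive and 0 negative at the unadjusted threshold (median r 0.46), and 12 of 23 positive over 9 arrays (median r 0.68). The kinase Aurkb led them over 12 arrays (0.247 ± 0.053, adjusted p = 0.229). Collagens and matrix genes had 11 of 37 positive and 1 negative (median r 0.36), with Col6a2 and Sparc first. Chemokines and inflammatory cytokines had 8 of 21 positive and 2 negative (median r 0.41): the monocyte chemokines Ccl7 and Ccl2 had slopes of 0.560 ± 0.112 (adjusted p = 0.162) and 0.587 ± 0.145 (adjusted p = 0.308). Macrophage markers had 5 of 36 positive, led by Lyve1 (0.299 ± 0.079, adjusted p = 0.379). Mature adipocyte markers had 1 positive and 2 negative of 20, and fatty acid synthesis genes 0 positive and 2 negative of 22. Mesothelial markers had 0 positive and 2 negative of 15 over 12 arrays and 7 negative over 9 (median r -0.51); their part in the result was not tested.

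No gene passed the adjusted test with Lep, on 12 arrays (0%) or on 9 (0%). At an unadjusted p under 0.05, limma had 644 genes (4%) with a positive and 501 (3.11%) with a negative slope over 12 arrays, and 3.48% and 2.43% over 9. The 5 genes most like Lep by r were Lrrc25 (0.91), Tbc1d7 (0.89), Gng2 (0.88), Wfdc21 (0.88, 11 arrays) and Paqr7 (0.87). Wfdc21, a secreted whey acidic protein domain gene, shared the smallest adjusted p with Lrrc25 and Gng2 (0.316; slope of Wfdc21 1.12 ± 0.187) and ran from -0.95 on replicate 11 to 0.91 on replicate 8. In the opposite direction stood Il33, an alarmin cytokine (-0.655 ± 0.133, r = -0.83, adjusted p = 0.344), Sfxn1 (r = -0.83) and Oxld1 (r = -0.85). Another bright Sfxn1 probe followed the ranked one with r of only 0.38. Il33 was highest on replicate 7 at 0.64, the array of lowest Lep, and lowest on replicate 8 at -0.46.

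Proliferation genes were among those nearest Lep once the duct-bearing arrays were left out. Over 9 arrays Wfdc21 had the largest moderated t (r = 0.91 over 8 arrays with a value). Cdkn3, a phosphatase of the cell cycle, and Mki67, the proliferation antigen Ki-67, had r of 0.955 and 0.907 with Lep, beside 0.93 for Lrrc25 and -0.94 for Oxld1. Neither Cdkn3 nor Mki67 passed the adjusted test (both adjusted p = 0.186 by limma, n = 9; over 12 arrays r = 0.68 and 0.75). Mki67 was 0.42 on replicate 10 and 0.33 on replicate 8, and -0.57 and -0.55 on replicates 6 and 11. At an unadjusted p under 0.05, the cell cycle list had 12 of 23 members positive and 0 negative over 9 arrays (median r 0.64). Over 12 arrays it had 8 and 0 (median r 0.41). Ube2c, a ubiquitin-conjugating enzyme of mitosis, led it over 12 arrays (0.515 ± 0.105, adjusted p = 0.344).

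Macrophage markers were the other large group on the side of Lep, with 12 of 36 positive and 0 negative at an unadjusted p under 0.05. Their median r was 0.47, beside -0.03 for all genes. Cd163, a haemoglobin scavenger receptor of resident macrophages, had r = 0.85 (0.404 ± 0.090, adjusted p = 0.367), and Adgre1, which encodes F4/80, 0.63. Of other macrophage markers, Lyz2 had r = 0.67, Itgax 0.29 and Trem2 -0.09. Without replicates 7 and 11, r was 0.34 for Adgre1, 0.29 for Lyz2, 0.52 for Itgax and 0.09 for Trem2. Genes tied to fat mass expansion had 5 of 13 positive, among them Bmp3 (1.14 ± 0.258, adjusted p = 0.375) and Mest itself (adjusted p = 0.479). Smooth muscle and pericyte markers had 5 of 12 negative at an unadjusted p under 0.05 (median r -0.48). Myl9 (-0.837 ± 0.258) and Tagln (-0.739 ± 0.230) came first, both at an adjusted p of 0.551. That list was low on replicates 2, 6, 8 and 10 (means -0.59, -0.76, -0.74 and -0.69). Of these, 8 and 10 are the 2 of highest Lep, while 2 and 6 are not. Over 9 arrays 1 of the 12 was negative at an unadjusted p under 0.05, and 2 had r above 0 (median r -0.43). Mature adipocyte markers had 1 of 19 positive and 0 negative (median r 0.11), and fatty acid synthesis genes 1 of 22 and 0 (median r 0.06).

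With Cd68 no gene passed the adjusted test either, on 12 arrays (0%) or 9 (0%). Unadjusted, 3.34% of genes had a positive and 5.5% a negative slope over 12 arrays, which makes 537 and 884 genes, and 3.82% and 5.67% over 9. Leaving out replicate 1 gave 2 called genes and leaving out replicate 2 gave 1; leaving out any other gave 0. The 5 genes most like Cd68 by r were Rgs18 (0.93), Lgals3 (0.91), Gmps (0.89), Clec4a3 (0.89) and Adcyap1r1 (0.87). Another Gmps probe followed the ranked one with r = 0.88, and a further one ran against it (r = -0.37). Another Adcyap1r1 probe had r = 0.43 with its ranked one.

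Rgs18, a regulator of G protein signalling of blood cells, changed by 0.846 ± 0.129 per unit of Cd68 (adjusted p = 0.096), and another probe followed it with r = 0.75. Lgals3, which encodes galectin-3, a lectin abundant in macrophages, changed by 0.837 ± 0.141 (adjusted p = 0.114) and was highest on replicate 10 at 0.45, as Cd68 was. Clec4a3, a C-type lectin receptor of myeloid cells, changed by 0.898 ± 0.158 (adjusted p = 0.114). On the negative side, Pdpk1 and Myo1e had r of -0.92 and -0.88, but 2 other probes of each had r between -0.42 and 0.41 with the ranked one. Lgals12, a galectin of adipocyte lipid droplets picked out after its values were seen, had r = -0.59 over 12 arrays (adjusted p = 0.472 by limma), -0.34 without replicates 4 and 10, and -0.92 over the 9 arrays (adjusted p = 0.0916).

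Macrophage markers had 14 of 35 members positive with Cd68 and 0 negative (median r 0.46, beside -0.04 for all genes), with Lyve1 (0.954 ± 0.182, adjusted p = 0.148) and Cd84 (adjusted p = 0.322) after Lgals3. Adgre1 and Lyz2 had r of 0.70 and 0.67. Collagens and matrix genes had 6 of 37 positive and 0 negative, chemokines and inflammatory cytokines 4 of 21 and 0, with Ccl9 first (0.719 ± 0.162, adjusted p = 0.254). Endothelial markers had 0 positive and 3 negative of 18 (median r -0.34), and smooth muscle and pericyte markers 0 and 5 of 12 (median r -0.50). Mature adipocyte markers had 1 positive and 1 negative of 20 over 12 arrays, with a median r of -0.08, and -0.35 over 9.

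Acly was the gene that followed Fasn. It encodes ATP citrate lyase, which makes the cytosolic acetyl-CoA that fatty acid synthase consumes, and it was the only 1 of 16087 genes (0.00622%) called with Fasn over 12 arrays. Acly (chr11:100293293-100293351, mm8) ran from -2.12 on replicate 7 to -0.80 on replicate 11. It lay between -1.03 and -0.80 on replicates 4, 6, 8, 11 and 12, where Fasn was -0.55 or more, and at -1.82 or less on replicates 1, 3, 5, 7 and 10, where Fasn was -0.80 or less. Replicates 2 and 9 are in neither set, although Fasn on replicate 9 was also below -0.80, so the sets do not describe all arrays. The slope of Acly on Fasn was 1.05 ± 0.136 (SE, n = 12, r = 0.92, rho = 0.93, adjusted p = 0.0435 by limma, permutation p of r = 1e-04, adjusted 0.00145 over the 188 picked relations). Without replicates 4 and 7, r was 0.94. A dim second Acly probe, well above background on 3 arrays, did not follow the ranked one (r = 0.05).

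The call was lost (0 genes) when any of replicates 2, 3, 5, 7, 8, 9, 10, 11 or 12 was left out, and 2 genes were called without replicate 1, 4 or 6. The slope stayed between 1.00 and 1.28. Over 9 arrays 0% of genes were called. The slope of Acly was 1.03 ± 0.179 (r = 0.88, adjusted p = 0.621 by limma, exact permutation p = 0.00198, adjusted 0.0124 over the 188 picked relations). The limma test was thus not passed. Without replicates 3 and 10, the farthest from the median of Fasn, r was 0.72. Fasn had r = -0.66 with the median net Cy5 signal of the array (permutation p = 0.0207, adjusted p = 0.166 over 8 relations of anchors with array quality), and its values on replicates 5, 7 and 9 (-1.14, -1.27 and -0.90) were among the 6 lowest. With that signal as a covariate, an alternative chosen after seeing the data, the slope of Acly was 0.96 (adjusted p = 1 by limma) and 0 genes were called. With the share of probes well above background as the covariate it was 1.03 (adjusted p = 0.0444) and 2 genes were called, Acly among them.

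Other enzymes of fatty acid synthesis stood next to Acly. Acss2, the cytosolic acetyl-CoA synthetase, had r = 0.90 with Fasn (0.745 ± 0.114, adjusted p = 0.101), Acaca, acetyl-CoA carboxylase, 0.84 (0.747 ± 0.141, adjusted p = 0.233), and Elovl6, the elongase of palmitate, 0.80 (0.543 ± 0.124, adjusted p = 0.487). The 5 genes most like Fasn by r were Acly, Acss2, Recql4, Me1 (malic enzyme, 11 arrays) and Pdha1, with r from 0.85 to 0.92. The other 2 Acss2 probes followed the ranked one with r of 0.94 and 0.80. Of 21 fatty acid synthesis genes tested, 9 had a positive slope at an unadjusted p under 0.05 and 0 a negative one, over 12 arrays and over 9, where 2.88% and 6.41% of all genes met it in each direction over 12 arrays and 1.3% and 1.39% over 9. The median r was 0.43 and 0.50, beside -0.02 and 0.01 for all genes.

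Lists around the pathway had more positive than negative members. Triglyceride synthesis and storage genes had 8 of 19 positive and 2 negative (median r 0.51), led by Gpd1, which supplies glycerol 3-phosphate (0.687 ± 0.129, adjusted p = 0.233). Citric acid cycle and pyruvate oxidation genes had 8 of 25 positive and 0 negative (median r 0.44), with the pyruvate dehydrogenase genes Pdha1, Pdhb and Dlat first. Respiratory chain genes had 7 of 29 positive (median r 0.48), and cholesterol synthesis genes 6 of 22 (median r 0.40), each with 0 negative. Over 9 arrays these 4 lists had 4, 4, 5 and 4 positive members, with 1 negative in the citric acid cycle list and 0 in the others. Thrsp, a lipogenic nuclear protein, had r = 0.69 and Plin1, the lipid droplet coat, 0.67, neither passing the adjusted test (adjusted p = 0.528 for both).

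Against Fasn stood Bcl6 (-1.71 ± 0.256 over 11 arrays, adjusted p = 0.101), but its values lie in 2 sets, which the pooled slope spans. Within the 6 arrays of high Cish, Bcl6 and Fasn had r = -0.35 (exact permutation p = 0.503). Fbxo21 (-0.549 ± 0.098, adjusted p = 0.233) and Slc2a12, a glucose transporter (-0.463 ± 0.090, adjusted p = 0.269), also went against Fasn. The other 2 Fbxo21 probes had r of -0.23 and 0.62 with the ranked one. Timp1, an inhibitor of matrix metalloproteinases, had r = -0.77 and the chemokine Cxcl14 -0.76 (adjusted p = 0.528 for both). The clock output genes Tef, Hlf and Dbp had r of -0.70, -0.64 and -0.62, and the circadian list had 5 of 16 negative and 2 positive over 12 arrays but 0 negative and 1 positive over 9. At an unadjusted p under 0.05, epithelial markers had 8 of 10 tested members negative over 12 arrays and 0 over 9. Testis and sperm markers had 7 of 11 and 0. Replicates 5, 7 and 9 are the arrays high in these lists and among the 6 lowest for Fasn. Cish and Fasn had r = 0.72 within the 6 arrays of high Cish (exact permutation p = 0.115) and -0.45 within the 6 of low Cish (exact permutation p = 0.399), and neither passed.

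**Figure D5:**
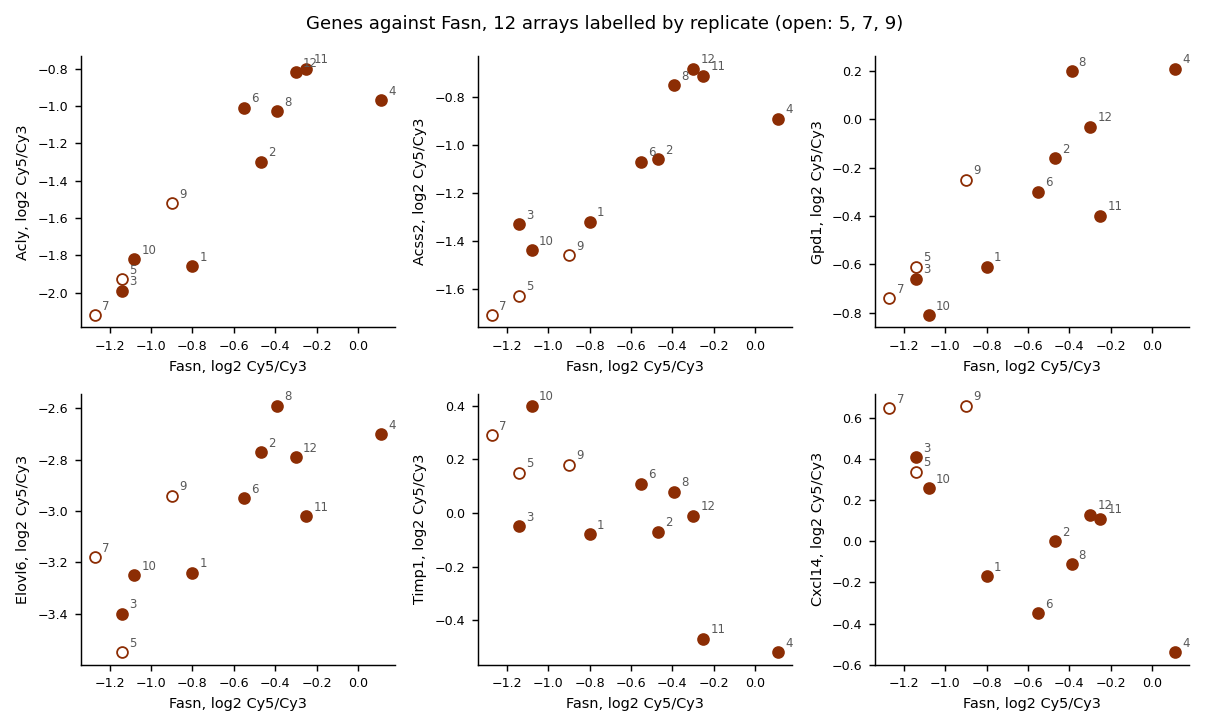
Log2 Cy5/Cy3 of Acly, Acss2, Gpd1, Elovl6, Timp1 and Cxcl14 (y) against that of Fasn (x), 1 point per HF-AL array labelled by replicate, open for replicates 5, 7 and 9. The first 4 genes rise along the axis, with r from 0.80 to 0.92, and the last 2 fall, with r of -0.77 and -0.76; only Acly passed the adjusted test.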

How the data were processed

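The members (12 arrays), anchor genes and gene lists were chosen with earlier results of these data known. Per the labels, 500 ng of each animal's RNA was made into cDNA and split between the dyes, and all Cy3 products were pooled. The deposited intensity values, per the file headers, are mean spot signals and median local backgrounds from Agilent Feature Extraction 9.5.3.1, on a linear scale and not normalised. Its processed signals served as another setting. So did the authors' deposited matrix of log2 values, whose 12 columns had r of 0.990 to 0.997 with the log2 Cy5 signal of their arrays; the sources used here do not say how it was made, and its 24 columns of other groups were not used.

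Background was corrected with normexp (offset 50), fitted without specks (net signal more than 50 below 0), then loess within arrays (4 iterations). Of each gene the brightest probe well above background on at least 9 arrays (SD ranking: 3), with at least 9 usable values, was used; 795 of 16088 genes lacked a value on some array. Each gene was regressed on each anchor with limma 3.58.1 (R 4.3.3), moderated, two-sided, Benjamini-Hochberg over all genes. Pearson r had permutation tests (100000 resamples on 10 or more arrays, exact below). These were computed for 188 gene and anchor relations, many of them picked for a strong link with the anchor on the same arrays. Their permutation p, also when adjusted over the 188, is therefore small in advance and only describes. The limma adjusted p is the test. Genes named were the anchors, the 20 of highest SD, those called or nearest each anchor, 3 per list and a fixed set, all with curated symbols; Epcam, Prm1, Hdc, Sult1e1, Lgals12, Svs4, C7 values and the smooth muscle arrays were picked out after values were seen. RefSeq promoter windows (GRCm38.p6) were matched by symbol for 4 of 4 genes. The fit was tested on simulated data. Some genes that met the naming rule are not reported here. Probe positions are on mm8 per the file headers.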

Additional observations from a re-analysis of the deposited data

How the results depend on the processing

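No paired analysis was possible because only 1 group was analysed. The slide could not be fitted as a block, since each slide held 1 array, and Lep has no complete values in the series matrix. Counts called over 12 arrays under other settings were as follows. For Mest (8) there were 0 with normexp on all spots, without a filter, without the arrays with specks or without the 2 farthest arrays, 1 with processed signals or the mean of all probes, 15 without replicates 5, 7 and 9, and 19 with the series matrix. Fasn (1) gave 0 with normexp on all spots, scaling, no filter, another Fasn probe, with the median net Cy5 signal as a covariate (chosen after seeing the data), or without replicates 5, 7 and 9, the arrays with specks or the 2 farthest arrays, 2 with the share of probes well above background as a covariate, 3 with the mean of probes and 11 with the series matrix. Lep (0) gave 1 with processed signals or that share. Cd68 (0) gave 2 with normexp on all spots or processed signals. Over 9 arrays Mest (15) gave 0 with normexp on all spots or processed signals and 8 with the mean of probes, and Lep (0) gave 2 with processed signals. No slope of a called gene with a curated symbol changed sign under any alternative run; the 2 others were not followed.

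Leaving out 1 replicate gave 0 to 14 genes for Mest and 0 to 15 over 9 arrays, 0 to 2 for Cd68 and 0 to 4 over 9, 0 to 2 for Fasn, and 0 to 0 for Lep. It gave r of 0.625 to 0.782 for Lep and Mest, 0.429 to 0.737 for Lep and Cd68, -0.199 to 0.308 for Lep and Fasn, -0.358 to 0 for Mest and Fasn, and -0.385 to 0.086 for Cd68 and Fasn. Lep and Mest missed the threshold with normexp on all spots (0.705, adjusted p = 0.0595), with scaling (0.704, adjusted p = 0.0644) and over 9 arrays (0.752, adjusted p = 0.104). Lep and Cd68 passed it with processed signals (0.686, adjusted p = 0.0455). Lep and Fasn turned to -0.028 with scaling and -0.228 over 9 arrays.

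Genes with an SD over 1 (286) numbered 727 with processed signals, 122 with the strict filter, which removes genes seen on few arrays and picks probes anew, and 5 over 9 arrays. Genes over 0.5 on 9 arrays (107) numbered 179 with normexp on all spots, which kept 2 of the 20 leading genes, and 1449 with processed signals, which have no offset and kept 4. Cause was not tested otherwise.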
